A study of Mus musculus with 2 samples.

Results

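The Dlx genes, the mouse relatives of fly Distal-less, were described with the long noncoding RNAs transcribed against them in embryonic forebrain. Members were taken by gene symbol: Dlx1 to Dlx6, Dlx1as and Dlx6os1. These 8 symbols map to 9 gene IDs, because Dlx6os1 has 2, out of 43346 mouse genes in the tables. Total RNA of forebrain from B6NCrl embryos of mixed sex at embryonic day 12.5 was sequenced as 2 libraries of 10 ng of RNA each, from RNA above 200 nucleotides. Replicate 1 pooled 120 embryos and replicate 2 pooled 68, so each value averages over many animals and the spread is that between separate pools. The labels name no mutant allele, transgene or treatment. The pools form 1 group with no control, so there is no test between conditions and the spread between the pools serves as the yardstick.

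Expected counts, the estimated numbers of reads per feature, summed to 33711030 in replicate 1 and 34578499 in replicate 2. Levels are given as TPM, reads divided by transcript length and scaled to the same total in each library, so that genes can be set against each other. The dorsal forebrain markers Emx1 and Pax6 and the GABA synthesis enzyme Gad2 were all above 1 TPM in both pools. Head mesenchyme markers such as Col3a1 were too, so passing that level does not test the purity of the labelled tissue. In bulk tissue, fewer cells of a type and less RNA per cell cannot be told apart.

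Dlx genes encode homeodomain transcription factors and lie in convergently transcribed pairs, the bigene clusters. In the ventral forebrain, Dlx1, Dlx2, Dlx5 and Dlx6 act in the ganglionic eminences, where they drive the differentiation and migration of GABAergic neurons, with Dlx1 and Dlx2 switched on earlier and acting on Dlx5 and Dlx6. Dlx3 and Dlx4 are known chiefly from branchial arches, placenta, epidermis and bone. Dlx6os1, also called Evf2, is transcribed across the Dlx5 and Dlx6 enhancers and regulates that locus, and Dlx1as runs against Dlx1.

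The homeobox, the coding stretch for the DNA-binding domain, is shown for all 6 coding genes because paralogues this alike could exchange reads. Each run is 180 bases of coding sequence, 5′ to 3′, from the GRCm38 genome and the M21 annotation. Capitals mark the positions at which the 6 genes are not all the same.
Dlx1: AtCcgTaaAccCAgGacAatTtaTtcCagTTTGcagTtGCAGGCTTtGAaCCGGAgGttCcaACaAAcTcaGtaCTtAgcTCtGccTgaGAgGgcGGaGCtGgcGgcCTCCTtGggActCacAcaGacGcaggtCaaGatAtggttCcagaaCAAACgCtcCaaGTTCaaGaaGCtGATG
Dlx2: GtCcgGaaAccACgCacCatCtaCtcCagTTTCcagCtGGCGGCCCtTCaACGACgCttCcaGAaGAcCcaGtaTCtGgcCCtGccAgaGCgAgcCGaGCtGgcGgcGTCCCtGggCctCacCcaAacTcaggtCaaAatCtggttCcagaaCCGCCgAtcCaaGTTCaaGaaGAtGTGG
Dlx3: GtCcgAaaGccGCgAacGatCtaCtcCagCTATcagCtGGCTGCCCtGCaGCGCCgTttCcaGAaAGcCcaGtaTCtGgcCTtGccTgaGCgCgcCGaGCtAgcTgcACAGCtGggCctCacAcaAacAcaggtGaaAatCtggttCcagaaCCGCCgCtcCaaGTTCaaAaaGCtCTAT
Dlx4: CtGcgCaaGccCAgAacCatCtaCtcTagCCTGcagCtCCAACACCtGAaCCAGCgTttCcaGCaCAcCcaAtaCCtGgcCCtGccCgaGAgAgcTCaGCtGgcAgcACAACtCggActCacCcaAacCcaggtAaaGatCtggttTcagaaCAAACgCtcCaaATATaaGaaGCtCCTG
Dlx5: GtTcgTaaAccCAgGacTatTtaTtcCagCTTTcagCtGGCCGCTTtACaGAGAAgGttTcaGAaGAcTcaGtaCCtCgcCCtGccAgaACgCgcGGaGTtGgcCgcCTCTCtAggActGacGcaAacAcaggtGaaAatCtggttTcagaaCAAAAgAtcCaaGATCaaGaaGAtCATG
Dlx6: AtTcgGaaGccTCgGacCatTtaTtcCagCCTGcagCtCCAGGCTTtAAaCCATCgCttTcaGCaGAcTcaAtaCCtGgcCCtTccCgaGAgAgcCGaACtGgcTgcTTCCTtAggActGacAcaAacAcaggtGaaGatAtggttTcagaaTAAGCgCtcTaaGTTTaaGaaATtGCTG

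The 6 homeoboxes were identical at 92 positions and varied at 88. Dlx2 and Dlx3 were the most alike at 81.7% identity, and Dlx3 and Dlx6 the least at 66.1%. Partners within a cluster were not the closest pairs: Dlx1 and Dlx2 shared 73.9%, Dlx5 and Dlx6 73.3%, and Dlx3 and Dlx4 71.7%. The longest identical run in any pair was 23 bases. Over whole transcripts, none of the 6 coding genes shared a stretch of 100 bases on the same strand with any other gene, so a read that long from a Dlx coding gene has a single source on that strand.

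The start regions that RefSeq (GRCm38.p6) lists for Dlx2 and Dlx6os1 are shown as examples from members that were lower in replicate 2. That of Dlx1, also lower there, is listed but not shown. Each region shown holds 250 bases before the start and 50 after. Capitals mark matches on either strand to the homeodomain core TAATTA, the E-box CAGCTG, the promoter box TATAAA and the box of Sp factors GGGCGG. No match overlapped another. RefSeq gives Dlx6os1 a distal and a proximal start. The distal window lies inside an M21 exon of Dlx6os1-201 (chr6:6869309-6869787). The 50 bases after the proximal start are not found whole in any M21 transcript of the longer Dlx6os1 entry. The windows are chr2:71546705-71547004, minus strand, for Dlx2, chr6:6869484-6869783, minus strand, for the distal start and chr6:6861634-6861933, minus strand, for the proximal start.
Dlx2: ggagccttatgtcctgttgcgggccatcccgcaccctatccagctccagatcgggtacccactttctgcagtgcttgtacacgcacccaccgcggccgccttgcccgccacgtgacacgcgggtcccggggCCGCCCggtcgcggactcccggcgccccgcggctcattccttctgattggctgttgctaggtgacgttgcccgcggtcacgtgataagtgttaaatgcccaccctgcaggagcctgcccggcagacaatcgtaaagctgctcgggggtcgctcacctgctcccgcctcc
Dlx6os1 distal start: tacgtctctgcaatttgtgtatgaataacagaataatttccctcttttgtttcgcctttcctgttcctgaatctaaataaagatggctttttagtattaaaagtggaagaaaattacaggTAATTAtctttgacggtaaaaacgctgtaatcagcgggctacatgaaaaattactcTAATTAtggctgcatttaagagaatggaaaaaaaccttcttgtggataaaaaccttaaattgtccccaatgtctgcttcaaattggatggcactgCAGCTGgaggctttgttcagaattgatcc
Dlx6os1 proximal start: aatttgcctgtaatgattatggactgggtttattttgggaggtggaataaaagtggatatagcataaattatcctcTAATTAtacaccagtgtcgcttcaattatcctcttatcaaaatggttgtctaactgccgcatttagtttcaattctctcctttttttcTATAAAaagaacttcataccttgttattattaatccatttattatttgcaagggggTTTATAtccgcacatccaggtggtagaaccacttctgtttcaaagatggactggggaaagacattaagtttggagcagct

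The Dlx2 window was 66.3% G and C and the Dlx6os1 windows 35.7% and 35.3%, against a median of 52.7% over 32851 promoters of the same length. TAATTA occurred at -130 and -74 in the distal Dlx6os1 window and at -174 in the proximal one, counted from the start as 0. It was present in 5.29% of all promoters. The distal window also held CAGCTG at 21 (16.3% of promoters) and the proximal one TATAAA at -86 and -30 (13.6%). GGGCGG lay at -119 to -114 in the Dlx2 window and occurred in 35.7% of promoters. Such matches describe the letters only.

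**Figure D1:**
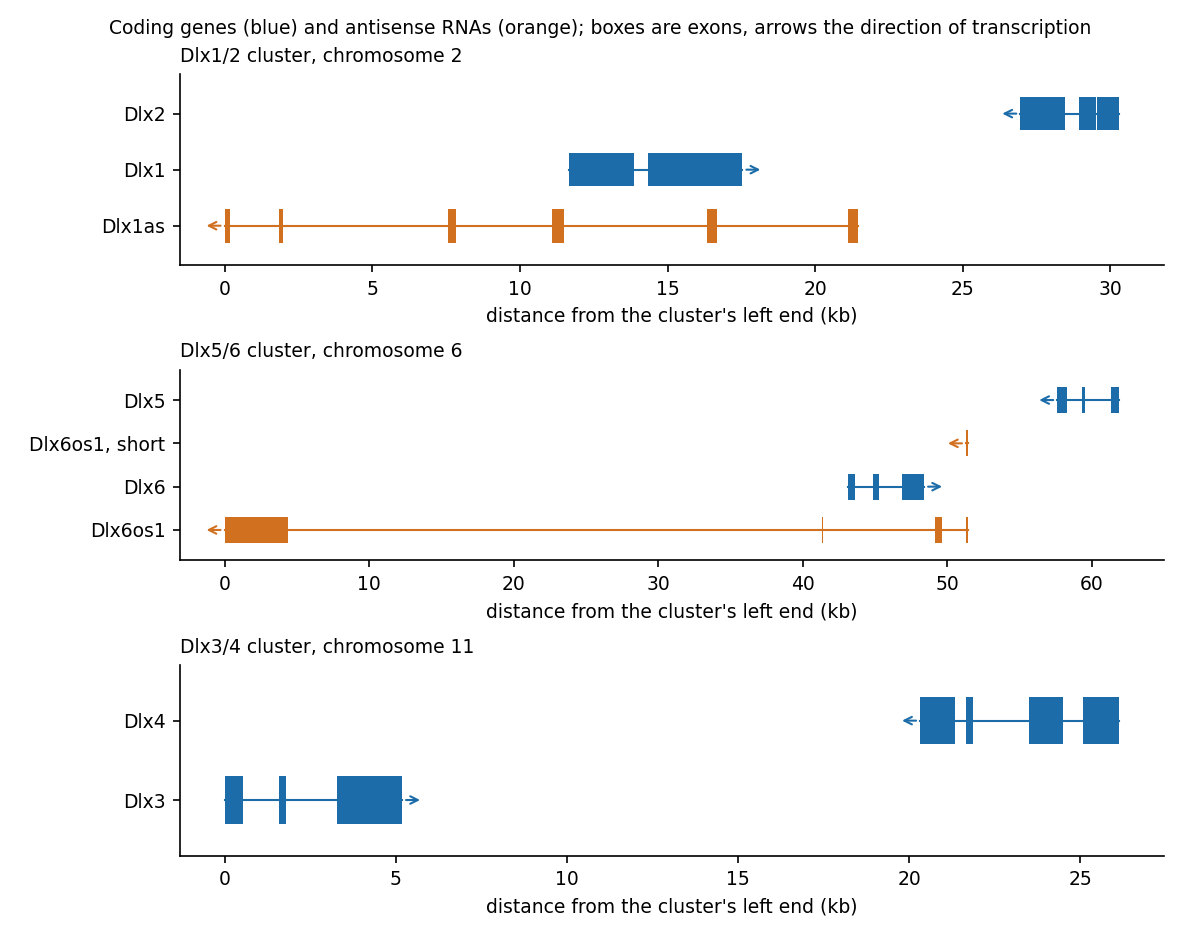
Exons (boxes) and direction of transcription (arrows) of the members in each bigene cluster, in kb from the cluster's left end, for coding genes (blue) and antisense RNAs (orange), with the 146-base gene ID of Dlx6os1 as its short entry. The coding genes of each pair point at each other across gaps of 9426, 9236 and 15150 bases, and the antisense RNAs span Dlx1 and Dlx6.

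Dlx1, which with Dlx2 starts interneuron differentiation, had the highest level of the 184 homeobox genes. Dlx1 (ENSMUSG00000041911, chr2:71528113-71533981, plus strand, GRCm38) stood at 245.88 (replicate 1) against 170.50 TPM (replicate 2). Directly below it came Lhx2, a selector of cortical progenitors, at 173 ± 17.0 TPM (SD, n = 2), and Cux1 at 132 ± 4.31 TPM (SD, n = 2). In replicate 2 alone Lhx2, at 185.41 TPM, was above Dlx1, so the first place held for the mean and for replicate 1, with transcripts of every class counted.

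Dlx2 (ENSMUSG00000023391, chr2:71543408-71546754, minus strand), the partner of Dlx1, stood at 109.30 (replicate 1) against 70.84 TPM (replicate 2). By its mean it ranked 5 among homeobox genes, between Pax6 at 90.8 ± 0.969 TPM and Meis2 at 88.3 ± 3.37 TPM (SD, n = 2), but it ranked 4 in replicate 1 and 9 in replicate 2. The ratio of Dlx1 to Dlx2 was 2.25 in replicate 1 and 2.41 in replicate 2, a mean log2(TPM + 1) ratio of 1.21 ± 0.0657 (SD, n = 2). This exceeded the larger difference of either gene between the pools, 0.62, so the genes were apart by the measure used for every ratio here. It rested on how Dlx1 reads were divided among transcripts. Over protein-coding transcripts alone, Dlx1 was at 49.64 and 29.84 TPM and Dlx2 at 102.28 and 65.02 TPM. The mean log2 ratio then turned to -1.06. With all counts set to the longest transcript's length it was 0.28, below the 0.62 between the pools. Protein-coding or coding transcripts, here and below, are those of that annotated class. For Dlx1 the class holds the full coding transcript, Dlx1-201, at only 12.34 and 10.02 TPM. The rest was Dlx1-202, at 17.34 and 10.49 TPM, and a transcript at chr2:71529101-71530231, at 19.96 and 9.33 TPM. Both end inside exon 1 of Dlx1-201 and hold none of its later exons. In expected counts Dlx1 had 9688 and 7122 and Dlx2 4968 and 3303.

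Dlx5 (ENSMUSG00000029755, chr6:6877805-6882085, minus strand), which acts after Dlx1 and Dlx2 in the migrating neurons, stood at 83.55 (replicate 1) against 55.65 TPM (replicate 2). Its partner Dlx6 (ENSMUSG00000029754, chr6:6863334-6868568, plus strand) was lower in both pools, at 12.91 TPM and 8.29 TPM. The Dlx5 to Dlx6 ratio was 6.47 in replicate 1 and 6.71 in replicate 2, and its mean log2(TPM + 1) value was 2.61 ± 0.00328 (SD, n = 2). The pair thus kept its ratio while the levels of both genes differed between the pools by -0.58 (replicate 2 minus replicate 1) on that scale. Over protein-coding transcripts alone, Dlx6 was at 7.30 and 4.69 TPM and the mean log2 ratio was 3.33. Among homeobox genes Dlx5 ranked 9 by its mean, between Tgif2 and Emx1, with 7 and 14 in the pools, and Dlx6 ranked 59, between Cux2 and Irx3, with 57 and 61.

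Dlx3 (ENSMUSG00000001510, chr11:95120119-95125296, plus strand), a regulator of epidermis, placenta and bone, was at 0.93 (replicate 1) against 0.84 TPM (replicate 2), on 47 and 44 counts. Dlx4 (ENSMUSG00000020871, chr11:95140447-95146263, minus strand) was at 0.05 TPM and 0.17 TPM. These Dlx4 levels rest on 2 counts in replicate 1 and 6 in replicate 2, so the first lies under the floor of 3 counts (0.0682 TPM there). Neither reached 1 TPM in either pool, and their homeobox ranks by mean were 99 and 122. The intervals and floors given cover counting error only.

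Of the summed TPM of the 6 Dlx coding genes, transcripts of every class included, the Dlx1/2 cluster held 78.6 ± 0.228%, the Dlx5/6 cluster 21.1 ± 0.308% and the Dlx3/4 cluster 0.273 ± 0.0801% (SD, n = 2). The order of the clusters and these shares were nearly the same in both pools, although the summed level of the Dlx1/2 cluster went from 355.18 to 241.34 TPM and that of Dlx5/6 from 96.46 to 63.94 TPM. Over protein-coding transcripts alone the shares were 61.5 ± 1.10% for Dlx1/2, 38.0 ± 0.980% for Dlx5/6 and 0.486 ± 0.119% for Dlx3/4 (SD, n = 2), so the order of the clusters held while Dlx5/6 gained. Across clusters, the Dlx1 to Dlx5 ratio was 2.94 and 3.06, but over protein-coding transcripts alone it turned to 0.594 and 0.536. The Dlx2 to Dlx6 ratio was 8.47 and 8.55. Dlx3 and Dlx4 summed to 0.98 and 1.01 TPM.

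**Figure D2:**
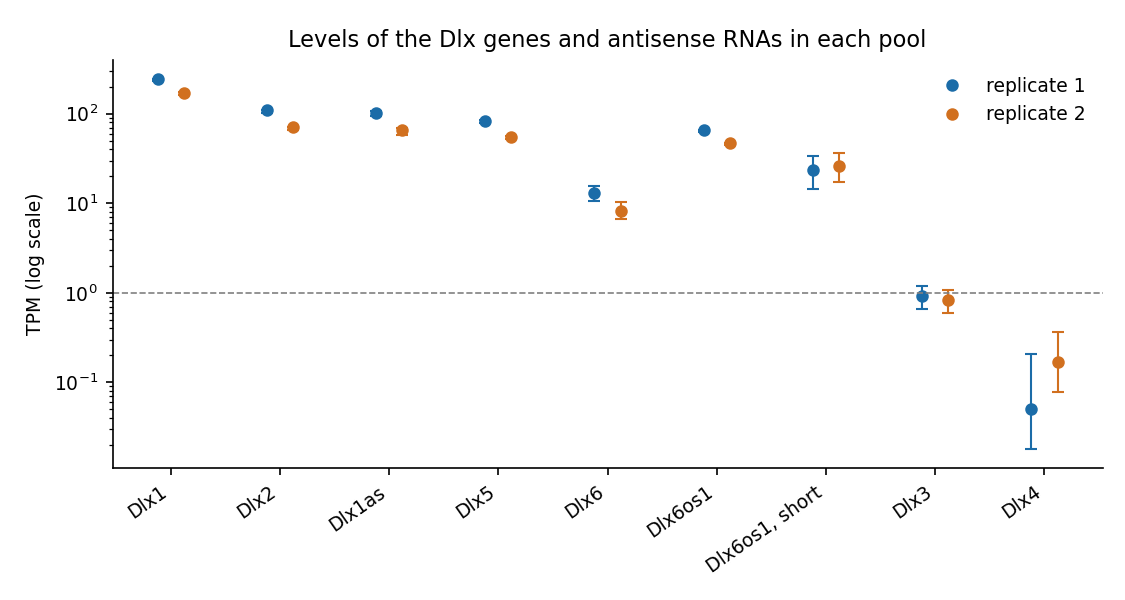
TPM on a log scale of each member in replicate 1 (blue) and replicate 2 (orange). Points are maximum-likelihood TPM, bars the deposited interval of the posterior mean TPM, and the dashed line 1 TPM (Dlx6os1, short, is the 146-base gene ID). In both pools 7 of 9 gene IDs lie above that line, and Dlx3 and Dlx4 below.

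By TPM the antisense RNAs were abundant, although the Dlx1as level may include Dlx1 reads where their exons overlap. Dlx1as (ENSMUSG00000084946, chr2:71516454-71537891, minus strand) stood at 103.08 (replicate 1) against 65.06 TPM (replicate 2), on 1140 and 745 counts. Its ratio to Dlx1 was 0.419 and 0.382, a mean log2(TPM + 1) ratio of -1.31 ± 0.0921 (SD, n = 2). Against protein-coding Dlx1 transcripts alone the mean log2(TPM + 1) ratio turned to 1.07. Dlx1as and Dlx2 were within their spread of each other, at a mean log2 ratio of -0.10.

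Dlx6os1 (ENSMUSG00000090063, chr6:6820189-6871592, minus strand) stood at 66.36 (replicate 1) against 47.52 TPM (replicate 2), on 5695 and 4263 counts. It exceeded Dlx6, the gene it runs against, by 5.14-fold and 5.73-fold, with a mean log2(TPM + 1) ratio of 2.33 ± 0.0771 (SD, n = 2), or 3.06 against the coding transcripts of Dlx6 alone. Dlx5, which is read from the same strand, was not apart from it: Dlx6os1 was at 0.794 and 0.854 times the level of Dlx5. Dlx6 was thus the lowest of the 4 coding genes above 1 TPM, and its antisense RNA lay near the level of Dlx5.

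The second gene ID of Dlx6os1 (ENSMUSG00000098326, chr6:6871488-6871633, minus strand) is a 146-base entry classed misc_RNA. It stood at 23.23 (replicate 1) against 26.36 TPM (replicate 2). These levels rest on 22 and 26 counts over an effective length of 47 bases, and the deposited intervals, 14.5 to 33.6 and 17.1 to 36.8 TPM, overlapped. In M21 it shares 104 exonic bases with Dlx6os1-201 of the longer Dlx6os1 entry. That transcript had 4248 bases in the deposited tables against 4608 in M21, so the overlap may differ in the annotation used for counting. Where it exists, reads cannot be told apart. Adding both IDs took the mean log2 ratio of Dlx6os1 to Dlx6 to 2.86 and its mean log2 ratio to Dlx5 to 0.25.

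In both pools the order of levels was Dlx1, Dlx2, Dlx1as, Dlx5, Dlx6os1, its 146-base entry, Dlx6, Dlx3 and Dlx4. With protein-coding transcripts alone, Dlx1 at 49.64 and 29.84 TPM came after Dlx2, Dlx1as, Dlx5 and Dlx6os1. Neighbours in the first order that did not differ beyond their spread were Dlx2 and Dlx1as, Dlx1as and Dlx5, and Dlx5 and Dlx6os1. The other neighbouring pairs were apart, including the 146-base entry over Dlx6 by a mean log2 ratio of 1.18. That last direction comes from the division by an effective length of 47 bases: in counts the entry had 0.0870 and 0.137 times those of Dlx6.

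The antisense RNAs differed in how their exons lay over those of the coding genes. Dlx1as shares 335 exonic bases with Dlx1, which is 6.21% of the Dlx1 exons and 20.6% of the Dlx1as exons, on opposite strands. All lie in Dlx1as-202, the transcript with most of the Dlx1as TPM, where they make up 335 of 647 bases. The other Dlx1as transcripts have none, the highest being Dlx1as-201 at 9.41 and 5.18 TPM. The authors' counting is not stated to use strand, so reads in the shared bases cannot be assigned to either gene with certainty. In M21, Dlx6os1 shares no exonic base with Dlx6 or Dlx5, so by that annotation its level does not draw on their exons. Dlx6 has 104 bases in common with a separate antisense entry, Dlx6os2, at 2.49 and 2.54 TPM. Dlx4os, which overlaps Dlx4 by 79 bases, was at 0 and 0.03 TPM.

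The transcript tables divide each gene's TPM among its annotated transcripts. Dlx1 was made up chiefly of transcripts classed as retained intron, which hold intronic sequence and are not annotated as coding. Dlx1-203 (chr2:71529947-71533981) held 42.4% of Dlx1 TPM in replicate 1 and 42.6% in replicate 2, and Dlx1-206 (chr2:71530780-71532689) 37.4% and 39.9%. Dlx1-203 keeps all 1107 bases of intron 2 (chr2:71531157-71532263), and Dlx1-206 holds 177 of the 650 bases of intron 1. The full coding transcript, Dlx1-201, held 5.0% and 5.9%. The other transcripts of the protein-coding class, which end inside its exon 1, held 7.05% and 6.15% (Dlx1-202) and 8.12% and 5.47% (chr2:71529101-71530231).

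Retained-intron transcripts together took 79.8% and 82.5% of Dlx1 TPM. Of 5283 protein-coding genes that have such a transcript and a mean of 1 TPM or more, 5.87% reached 50%, the median was 9.88%, and 43 were higher than Dlx1. Dlx6 was at 43.4% and Dlx2 at 7.33% on the same measure. In Dlx6 the value stands on 32 and 21 counts in Dlx6-204, a 383-base transcript that held 12.7% and 11.3% of the gene's counts. Short transcripts weigh more in TPM than in counts, and the 3385-base Dlx1-203 held 71.2% and 70.2% of Dlx1 counts.

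Dlx2 and Dlx5 each had a transcript that dominated. Dlx2-201 held 93.6% and 91.8% of Dlx2 TPM, and Dlx5-201 94.9% and 96.4% of Dlx5 TPM. Of 10097 genes with several transcripts, 23.0% had a leading transcript at 90% or more. Dlx1as-202, the Dlx1as transcript with the 335 bases inside Dlx1 exons, held 88.4% and 88.6%. Dlx6os1 was divided between Dlx6os1-202, at 55.3% and 63.7%, and the longer-reaching Dlx6os1-201, at 44.7% and 36.3%. The Dlx6 coding transcripts differed in order between the pools, with Dlx6-202 at 26.2% and 36.6% and Dlx6-203 at 30.4% and 20.0%, but the deposited TPM intervals of the pools overlapped for each.

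**Figure D3:**
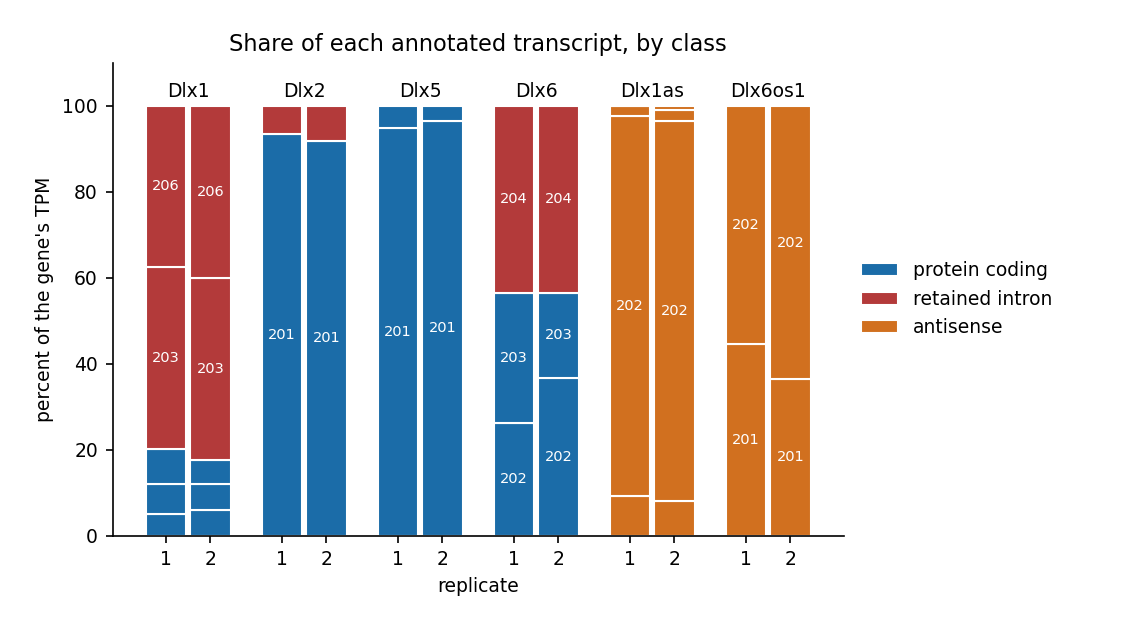
Percent of each gene's TPM held by its annotated transcripts in replicates 1 and 2, coloured by annotated class, with the transcript number written on shares of 15% or more. Red retained-intron shares make up 79.8% and 82.5% of Dlx1, 43.5% and 43.4% of Dlx6 and 6.43% and 8.22% of Dlx2.

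Most members were lower in replicate 2. The difference, replicate 2 minus replicate 1 in log2(TPM + 1), was -0.62 for Dlx2 and -0.66 for Dlx1as. These 2 of 9 gene IDs were at least 1.5-fold lower, against 1.51% of 15315 genes with a mean of 1 TPM or more. It was -0.53 for Dlx1, -0.58 for Dlx5, -0.58 for Dlx6 and -0.47 for Dlx6os1, all short of 1.5-fold with 1 TPM added. Dlx5 and Dlx6 lay at that limit: with a pseudocount of 0.1 TPM, or with TPM rescaled to mouse genes, 4 of 9 gene IDs were 1.5-fold lower. No member was 1.5-fold higher, against 2.62% of genes. At a fold of 1.25, chosen after the values were seen, 6 of 9 were lower, against 4.19% of genes. The 146-base Dlx6os1 entry, at 0.18, was the exception among the members above 1 TPM.

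The median difference of the 7 gene IDs with a mean of 1 TPM or more was -0.58 and that of all genes 0.01. For the 6 lower members the deposited intervals of the pools did not overlap. The share of all genes without overlap was not computed, so this is not read as particular to the members. Relative to the summed counts of mouse genes, replicate 2 held 0.714 times the Dlx1 counts of replicate 1 (95% exact interval 0.693 to 0.737). It held 0.646 times those of Dlx2 (0.618 to 0.675) and 0.730 times those of Dlx6 (0.601 to 0.884). All members were read from the same 2 libraries and those of a cluster share a locus, so they are not independent observations. With 2 pools of 1 group these values compare the pools and no condition.

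The genes upstream of Dlx in the ventral forebrain were partly lower in the same pool. All 10 genes of the list were at 1 TPM in both pools, with a median difference of -0.23. Nkx2-1, the selector of the medial ganglionic eminence, went from 54.33 to 30.69 TPM and Gsx2, which acts in the lateral eminence, from 26.50 to 15.39 TPM. Vax1 went the other way, from 3.41 to 5.65 TPM.

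Of 18 factors known to depend on Dlx or to mark its descendants, 16 were at 1 TPM in both pools. Among the highest were Meis2 and Isl1, at 88.3 ± 3.37 and 57.6 ± 4.95 TPM (SD, n = 2). Lhx8, which specifies cholinergic neurons, went from 45.37 to 20.57 TPM and Lhx6, a factor of medial eminence interneurons, from 28.14 to 18.00 TPM. No gene of the list was 1.5-fold higher in replicate 2, against 2.62% of all genes. The median difference of the list was -0.12.

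All 6 GABA genes were at 1 TPM in both pools and none was 1.5-fold apart. Of all genes, 1.51% were that much lower in replicate 2 and 2.62% higher, so a short list without calls is near these shares. Gad2, an enzyme that makes GABA, was at 64.83 and 59.00 TPM and the peptide gene Sst at 43.57 and 45.75 TPM. The dorsal list, all 12 at 1 TPM in both pools, had a median difference of 0.12 and, also near these shares, none 1.5-fold apart. Its highest were Neurog2 at 132.53 and 138.34 TPM, Pax6 at 90.10 and 91.47 TPM and Emx1 at 58.87 and 73.47 TPM.

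The summed lists of head mesenchyme and bone and of jaw and branchial arch were higher in replicate 2, the pool with the lower Dlx levels. The head mesenchyme and bone list summed to 733.26 in the first pool and 887.86 TPM in the second. In it 10 of 11 genes were at 1 TPM in both pools, and Foxc1 went from 3.30 to 6.13 TPM. Its highest were Col3a1, Col1a1 and Col1a2, at 323 ± 22.03, 195 ± 35.1 and 141 ± 28.3 TPM (SD, n = 2). The bone genes Runx2, at 2.86 and 2.46 TPM, and Sp7, at 0.41 and 0.24 TPM, were lower in replicate 2. The jaw and branchial arch list, where Dlx3 is a known arch gene, summed to 83.64 and 123.56 TPM with 8 of 12 genes at 1 TPM. Msx1, the highest of that list, went from 33.12 to 56.02, Msx2 from 8.07 to 16.17 and Barx1 from 0.73 to 1.80 TPM. Hand1 was at 0 and 0.06 TPM and Hand2 at 0.02 and 0 TPM. Alx1 was at 20.18 and 22.39 TPM.

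The surface ectoderm list had 9 of 10 genes at 1 TPM and summed to 56.93 and 58.05 TPM. Its members did not move one way. Krt5 and Krt15 were higher in replicate 2, at 3.06 and 5.22 TPM and 1.98 and 4.94 TPM. The highest genes were lower there, with Epcam at 14.72 and 12.62, Krt8 at 11.90 and 8.94 and Krt18 at 11.44 and 7.95 TPM, each within 1.5-fold. The olfactory placode list had 5 of 8 and summed to 47.68 and 48.95 TPM. Gnrh1, the hormone of migrating placode neurons, went from 2.12 to 0.68 TPM, and Ebf2 and Eya1 were among the highest. The part of non-neural tissue in the Dlx difference between the pools was not tested.

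**Figure D4:**
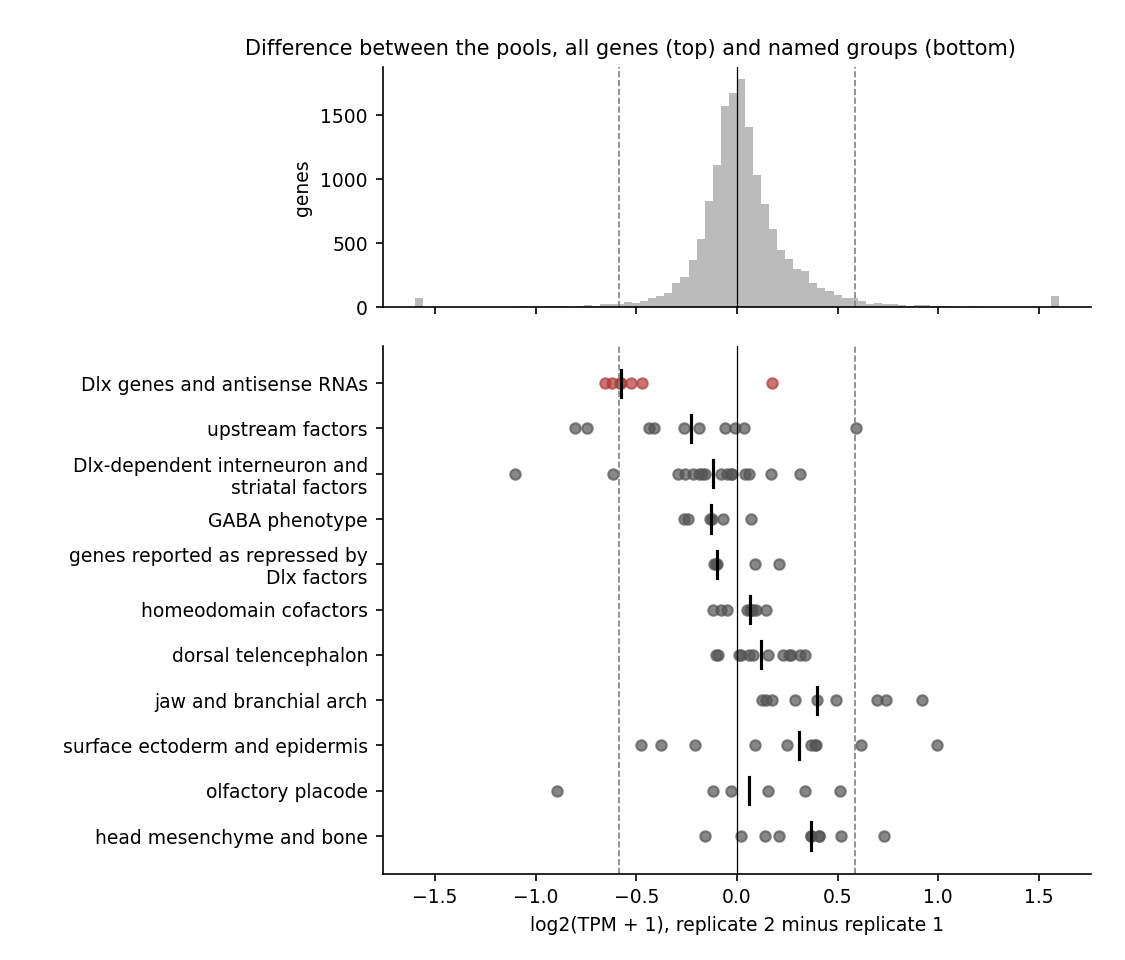
Difference in log2(TPM + 1) between the pools (replicate 2 minus replicate 1) for all genes with a mean of 1 TPM or more (histogram, ends clipped at 1.6) and for members and lists (points, black bar the median). Dashed lines are 1.5-fold: the median member is at -0.58, the median upstream factor at -0.23 and the median jaw gene at 0.40.

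The expressed genes beside the Dlx1/2 and Dlx5/6 clusters lay closer together between the pools than the Dlx genes did. Around Dlx1/2, 5 of 9 neighbours within 250 kb were at 1 TPM or more: Hat1 at 146.06 and 145.55, Slc25a12 at 49.98 and 44.60, Itga6 at 40.60 and 39.37, Metap1d at 35.35 and 34.07 and Gm17250 at 1.58 and 1.41 TPM. Around Dlx5/6 it was 3 of 5: Sem1 at 207.58 and 203.65, Sdhaf3 at 5.08 and 5.76 and Dlx6os2 at 2.49 and 2.54 TPM. None of these 8 was 1.25-fold lower in replicate 2, where 4.19% of all genes were.

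Around Dlx3/4, 8 of 17 neighbours were at 1 TPM or more, although Dlx3 and Dlx4 were not. Col1a1 was at 170.64 and 220.23, Slc35b1 at 103.86 and 104.19, Kat7 at 75.88 and 69.46 and Samd14 at 71.16 and 66.42 TPM. Pdk2 at 14.20 and 15.95, Ppp1r9b at 14.53 and 13.72, Fam117a at 4.97 and 6.44 and Itga3 at 4.27 and 3.10 TPM had the lowest levels of the 8. Itga3 alone was 1.25-fold lower in replicate 2.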

How the data were processed

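Total RNA of 2 forebrain pools was analysed from the authors' gene and transcript tables. Per the deposited text, each table was derived from transcriptome alignments of its replicate alone, on mm10 with GENCODE M4. Neither the aligner nor the quantifier nor the strand setting of the counting is stated there or in the labels. The authors deposited expected counts (estimated reads, not whole), TPM (scaled to the total of all features, spike-ins included), FPKM, the percent of gene TPM for each transcript, the posterior mean TPM with the bounds of its interval, treated here as a score whose level is not given, and effective lengths.

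Names, classes, exons and positions were looked up by unversioned gene ID in GENCODE M21 (also mm10), which named 42462 of 43346 genes. Of 24 member transcripts, 23 had the M21 length, and Dlx6os1-201 did not, at 4248 bases against 4608 in M21. Members and gene lists were chosen with earlier results of these data known. The genes named are all members, the 3 highest of each list with every list gene 1.5-fold apart between the pools, each neighbour at 1 TPM or more, and homeobox genes adjoining a Dlx gene by rank. Genes at 0 in a marker list were also named, and some genes that the rule names are not reported here.

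Differences and ratios were taken as log2(TPM + 1), which understates folds of low genes. Genes were apart where both pools gave the same sign and the mean ratio exceeded the larger difference of either gene between the pools. Count ratios have 95% exact Clopper-Pearson intervals. The floor is 3 counts. Promoters of 3 members were found in the RefSeq table, and genes were compared in windows of 100 bases. The fold calls were tested on simulated data.

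Alternatives were another pseudocount, posterior means, FPKM, counts scaled to the summed counts of mouse genes without length, and TPM rescaled to mouse genes. Further ones were other minimum levels, each pool alone, and scaling of rounded expected counts by edgeR 4.0.16 (TMM) and DESeq2 1.42.0 (size factors). Scripts ran in R 4.3.3 and in Python 3.11.15 with pandas 2.3.3, scipy 1.17.1, Biopython 1.88, numpy 2.4.6 and matplotlib 3.10.9.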

Additional observations from a re-analysis of the deposited data

How the results depend on the processing

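Of 152 alternative values for 41 results, 106 stayed the same, 42 moved and 4 reversed. For ratios and for transcript or cluster percents, the same meant a shift smaller than the SD between the pools. For differences between the pools it meant a shift within the counting error of the count ratio. For counts of genes and background shares it meant within 1.5-fold. Over coding transcripts alone, chosen after seeing the data, the mean log2 ratio of Dlx1 to Dlx2 reversed to -1.06, that of Dlx1as to Dlx1 to 1.07 and that of Dlx1 to Dlx5 to -0.81, by construction, since retained-intron transcripts leave Dlx1. The same choice gave 3.33 for Dlx5 to Dlx6, 3.06 for Dlx6os1 to Dlx6, -0.72 for Dlx1 between the pools and cluster shares of 61.5% (Dlx1/2), 38.0% (Dlx5/6) and 0.486% (Dlx3/4). With all counts set to the longest transcript's length, also chosen after seeing the data, the ratios were 0.28 (Dlx1 to Dlx2), 3.51 (Dlx5 to Dlx6), -0.43 (Dlx1as to Dlx1), 3.21 (Dlx6os1 to Dlx6) and 0.56 (Dlx1 to Dlx5), and the cluster shares 71.3%, 28.3% and 0.386%. The ratios of 0.28, -0.43 and 0.56 fell below the larger differences between the pools in the main setting, 0.62, 0.66 and 0.58. By the measure used here these genes were then no longer apart. Without division by length the ratios were 1.03 (Dlx1 to Dlx2), 2.90 (Dlx5 to Dlx6), -3.13 (Dlx1as to Dlx1) and 4.30 (Dlx6os1 to Dlx6). They were 1.40 for Dlx6os1 to Dlx5 and -1.09 for Dlx4 to Dlx3. The 146-base Dlx6os1 entry to Dlx6 reversed from 1.18 to -2.15 (chosen after seeing the data), by construction. A pseudocount of 0.1 TPM gave 2.71 (Dlx5 to Dlx6), -2.29 (Dlx4 to Dlx3) and 2.43 (Dlx6os1 to Dlx6), posterior means 2.55 and FPKM 2.54 for Dlx5 to Dlx6, and FPKM -0.53 for Dlx4 to Dlx3. FPKM is TPM times a single factor in each library, so its shifts come from the 1 added before the log, by construction. Adding both Dlx6os1 IDs gave 2.86 against Dlx6 and 0.25 against Dlx5, which turned that sign, although the genes were not apart.

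The number of member IDs lower in replicate 2 went from 2 to 6 at 1.25-fold (chosen after seeing the data), and to 4 with a pseudocount of 0.1 TPM or with TPM rescaled to mouse genes, since Dlx5 and Dlx6 lay just under 1.5-fold. The background shares moved to 0.692% lower and 1.12% higher at a mean of 5 TPM, and 0.934% and 1.51% with no filter. As a percent of counts, Dlx1-203 held 70.7%, Dlx2-201 98.3% and Dlx6-204 11.99%; from posterior means, Dlx1as-202 held 88.0% and Dlx6-204 42.8%. Where a cause is not given, the cause was not tested. At 5 TPM fewer list genes were detected, 5 for the jaw and 3 for the surface ectoderm. Under every scaling, with the other pseudocount and with posterior means, the 6 lower members stayed lower. The difference ran from -0.54 to -0.48 for Dlx1 and -0.63 to -0.39 for Dlx6, while the median of all genes moved by no more than 0.02. Over coding transcripts alone Dlx1 was at -0.72, and no median of all genes was taken for that setting. Dlx4 and the 146-base Dlx6os1 entry are limited by their counts. No paired analysis was possible because the pools form 1 group.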

Other observations

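Cofactors of homeodomain proteins were abundant beside the Dlx genes. All 9 listed genes of the Meis, Pbx and Pknox families were at 1 TPM in both pools. Their median log2(TPM + 1) difference was 0.07 (replicate 2 minus replicate 1). None was 1.5-fold apart, where 1.51% of all genes were lower and 2.62% higher in replicate 2. Among the highest were Meis2 at 90.68 and 85.91 TPM and Meis3 at 74.30 and 77.82 TPM.

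Of genes known from mutants to be held down by Dlx factors, all 5 listed were at 1 TPM in both pools, with a median difference of -0.10. None was 1.5-fold apart, where 1.51% of all genes were lower and 2.62% higher in replicate 2. The highest were the neurite genes Map2, at 301.38 and 278.52 TPM, Gap43, at 184.93 and 171.84 TPM, and Pak3, at 139.04 and 129.76 TPM. The others, Nrp2 at 25.52 and 27.26 TPM and Otp at 4.93 and 5.85 TPM, went the other way. Map2 and Gap43 are general genes of growing neurons.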
